A study of Mus musculus with 18 samples.

Results

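The regions described here were stretches of CpG-dense DNA at gene starts, measured by whole-genome bisulfite sequencing in CD4+ T cells and CD11b+ myeloid cells from the spleen of Dnmt3aR878H/+ mice and wild-type (WT) controls. A listed region of an autosome belonged to the set when it lay within 1 kb of a transcription start of a protein-coding gene (GENCODE M21, mm10) and held at least 0.06 measured CpG cytosines per base, counting both strands. In CD11b+ cells 5393 of 411770 listed regions met this rule, and in CD4+ cells 6024 of 553467, which gives 11417 of 965237 in all. They lay near 4273 genes in CD11b+ cells and 4592 in CD4+ cells, with 1986 genes common to both and 6879 in either, of 20807 autosomal protein-coding genes. The rule used position and CpG density and no methylation value. It drew, however, on regions listed by a tool that the study used to find differentially methylated regions. No listed autosomal region had equal means in both genotypes, so the listing itself may depend on the difference. How far it does was not tested.

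The study asked how a mutant DNA methyltransferase alters the methylome of mature leukocytes. The mutant mice carried the floxed Dnmt3a fl-R878H allele on the C57BL/6 background together with a Vav1-iCre transgene, whose Vav1 promoter drives recombination throughout the hematopoietic lineage, and were therefore heterozygous for R878H in blood cells. Controls were Dnmt3a+/+, a name that the study used for Cre+ animals with 2 normal alleles and for Cre-negative carriers of the floxed allele. The study's animals were young adults of both sexes, cells were enriched from spleen on magnetic columns, and no group was treated. Each cell type was taken from 4 mice per genotype, and the labels list 6 entries for mutant CD11b+ cells, in which mice 3 and 4 have 2 entries each.

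The tables hold 1 mean methylation percentage per genotype and region, so no value of a single mouse could be read, no error over mice could be given and no test between genotypes was run. The spreads quoted below are quartiles over regions, and regions are not replicates of a genotype. The genotype columns carry no name: the column with the higher genome-wide level was read as WT, following the study's account of its methylation distributions, and every direction rests on that reading. In the regions with the fewest cytosines, 10, all means were whole multiples of 1 percentage point divided by 40 (tolerance 0.02 of a step) in both genotypes and both cell types, and only 50% of the mutant CD11b+ means were multiples of 1 point divided by 60. Such steps arise when whole percentages of 4 libraries are averaged over 10 cytosines, so the 6 mutant CD11b+ entries did not enter as 6 libraries. Which entries were used, or whether repeat entries were merged, is not known. A mean of this kind cannot tell a partial level in all cells from a full level in some of them.

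CpG islands are stretches rich in CpG dinucleotides that cover many gene starts, among them those of housekeeping and developmental genes, and they are usually free of methylation in normal tissue, while most other CpGs of the genome are methylated. DNMT3A places new methyl groups on CpGs, and the R878H substitution in its catalytic domain corresponds to the most frequent DNMT3A change of human clonal hematopoiesis and leukemia. A minority of CpG-dense promoters is methylated in blood, including those of germline genes, the silent allele of imprinted genes and parts of the Hox clusters.

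The sequence of the regions is shown first for those that lost most. In each sequence the CpG dinucleotides, the sites that bisulfite sequencing reads, are in capitals, and the strand is that of the named gene, 5′ to 3′, from mm10. Hoxa5 encodes a homeobox transcription factor of the HoxA cluster, and its 300 bases directly upstream of the start (chr6:52204588-52204887, minus strand) hold 29 CpGs inside a region at 77.9% in WT and 13.7% in Dnmt3aR878H/+ CD11b+ cells. The gene 5730596B20Rik lies in the same cluster and is shown over the 300 bases before its start (chr6:52177198-52177497, plus strand), which hold 16 CpGs, and its region stood at 84.3% and 22.4%. Both stretches also lie within introns of longer transcripts of Hoxa3. Fam214a (chr9:74974907-74975120, plus strand, 11 CpGs in an intron, upstream of an internal start) and 6030445D17Rik (chr4:136461936-136462209, plus strand, 12 CpGs, between genes) are shown because their loss was among the largest in both cell types.
Hoxa5: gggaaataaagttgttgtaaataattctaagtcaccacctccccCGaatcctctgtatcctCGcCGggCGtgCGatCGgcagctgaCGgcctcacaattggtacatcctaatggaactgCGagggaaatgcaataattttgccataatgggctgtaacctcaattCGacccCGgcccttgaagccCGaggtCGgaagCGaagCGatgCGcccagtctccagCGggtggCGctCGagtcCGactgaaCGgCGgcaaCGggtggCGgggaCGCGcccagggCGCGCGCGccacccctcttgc
5730596B20Rik: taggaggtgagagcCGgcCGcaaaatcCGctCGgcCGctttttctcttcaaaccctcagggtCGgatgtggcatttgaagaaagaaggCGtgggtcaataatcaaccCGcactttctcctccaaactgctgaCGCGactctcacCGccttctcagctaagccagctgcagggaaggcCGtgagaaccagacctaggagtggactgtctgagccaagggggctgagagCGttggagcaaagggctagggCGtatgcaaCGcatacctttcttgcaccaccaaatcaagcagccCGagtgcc
Fam214a: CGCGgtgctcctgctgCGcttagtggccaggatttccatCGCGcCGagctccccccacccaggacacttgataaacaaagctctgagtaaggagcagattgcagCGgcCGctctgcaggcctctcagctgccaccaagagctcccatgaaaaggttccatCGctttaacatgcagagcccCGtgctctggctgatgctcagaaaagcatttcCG
6030445D17Rik: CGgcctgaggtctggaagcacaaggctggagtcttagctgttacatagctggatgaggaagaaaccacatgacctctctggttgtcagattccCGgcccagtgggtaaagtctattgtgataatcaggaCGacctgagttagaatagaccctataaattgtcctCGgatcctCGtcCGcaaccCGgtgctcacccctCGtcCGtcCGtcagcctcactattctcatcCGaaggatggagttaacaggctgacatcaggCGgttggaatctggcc

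The regions that gained are shown by coding sequence, since none of the 5 with the largest gain held a stretch upstream of its start and outside annotated exons. The stretch at Cebpb, a transcription factor of granulocyte and macrophage development, is part of its single coding exon (chr2:167689687-167689909, 24 CpGs) and is given on the minus strand, that of Tmem189, whose annotated start lies within it. The stretch of Pcbp1, an RNA-binding protein, is coding (chr6:86525513-86525812, minus strand, 24 CpGs). In CD11b+ cells the Cebpb region stood at 0.648% in WT and 47.5% in Dnmt3aR878H/+, and the Pcbp1 region at 0.582% and 45.6%.
Cebpb: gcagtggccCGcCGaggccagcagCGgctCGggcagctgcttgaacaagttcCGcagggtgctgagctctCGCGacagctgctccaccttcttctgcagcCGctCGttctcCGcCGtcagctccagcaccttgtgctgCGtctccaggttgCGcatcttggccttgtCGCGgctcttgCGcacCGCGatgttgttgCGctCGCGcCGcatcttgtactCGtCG
Pcbp1: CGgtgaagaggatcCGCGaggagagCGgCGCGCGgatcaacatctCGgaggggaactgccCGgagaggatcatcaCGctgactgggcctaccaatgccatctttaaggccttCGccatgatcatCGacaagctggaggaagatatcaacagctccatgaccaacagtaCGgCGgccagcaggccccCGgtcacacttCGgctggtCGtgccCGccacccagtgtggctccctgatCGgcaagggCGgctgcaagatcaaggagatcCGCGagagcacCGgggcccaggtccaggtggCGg

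Regions whose level moved by under 5 points are shown beside them. Dlgap2, a scaffold protein of synapses, stayed methylated in CD11b+ cells at 94.1% and 93.8% (coding exon and intron, chr8:14778046-14778345, plus strand, 13 CpGs). Trim45, a ubiquitin ligase, stayed unmethylated in the same cells at 0.223% and 0.955% (between genes, chr3:100921898-100922197, plus strand, 17 CpGs). Prkce, a protein kinase C, stayed unmethylated in CD4+ cells at 1.04% and 0.50% (between genes, chr17:86166580-86166879, plus strand, 24 CpGs).
Dlgap2: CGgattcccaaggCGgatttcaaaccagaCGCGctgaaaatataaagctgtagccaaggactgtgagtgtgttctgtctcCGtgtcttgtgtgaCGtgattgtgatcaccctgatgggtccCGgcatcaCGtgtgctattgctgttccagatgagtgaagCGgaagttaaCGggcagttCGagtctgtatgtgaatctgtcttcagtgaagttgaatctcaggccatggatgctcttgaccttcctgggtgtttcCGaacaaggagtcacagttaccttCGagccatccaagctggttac
Trim45: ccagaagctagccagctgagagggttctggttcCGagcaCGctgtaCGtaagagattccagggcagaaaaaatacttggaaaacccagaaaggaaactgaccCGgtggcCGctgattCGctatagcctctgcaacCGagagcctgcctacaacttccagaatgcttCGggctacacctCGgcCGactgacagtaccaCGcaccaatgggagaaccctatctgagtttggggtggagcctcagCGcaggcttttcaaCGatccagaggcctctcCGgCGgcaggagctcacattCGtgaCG
Prkce: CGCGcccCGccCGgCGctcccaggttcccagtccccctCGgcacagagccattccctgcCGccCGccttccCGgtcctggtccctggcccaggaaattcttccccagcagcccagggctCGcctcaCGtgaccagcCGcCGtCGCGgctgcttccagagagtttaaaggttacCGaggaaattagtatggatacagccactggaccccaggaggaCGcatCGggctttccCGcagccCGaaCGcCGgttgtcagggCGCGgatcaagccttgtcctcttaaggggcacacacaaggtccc

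In sequence these regions were nearest to the CpG-dense regions away from promoters. Their median G+C content was 59.3% in CD11b+ and 56.3% in CD4+ cells, against 48.3% and 48.0% in the CpG-sparse promoter regions, those within 1 kb of a start but under the density limit, and 52.7% and 52.2% in the CpG-dense regions away from promoters. The ratio of observed to expected CpGs had a median of 0.873 and 0.799, against 0.344 and 0.334 at sparse promoters, which the density rule leaves out, and 0.795 and 0.776 in dense regions elsewhere. The median region was 127 bases long in CD11b+ and 130 in CD4+ cells, close to the 133 and 134 bases of dense regions elsewhere, and 59.8% and 62.5% of them held exactly 10 cytosines. A start lay inside 14.5% of the CD11b+ regions and 12.0% of the CD4+ regions, and 402 and 245 lay within reach of more than 1 gene.

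The tables cover only part of the promoters of this kind. By sequence, 11825 genes (56.8%) had at least 3.00 CpGs per 100 bases between 250 bases before and 50 after their start, and a listed CpG-dense region lay within 1 kb of a start for 28.0% of these genes in CD11b+ cells, 28.8% in CD4+ cells and 43.9% in either. The others are not analysed here. Within a region the caller's cytosines were a median 71.4% of those in the sequence in CD11b+ and 83.3% in CD4+ cells. This share of cytosines used is the only trace of depth in the tables, and read depth per site is unknown.

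The labelled cell types were checked on the WT promoters of marker genes, most of which lie outside the dense set. Of 12 myeloid genes, 8 had a promoter region in both tables, and all 8 were less methylated in CD11b+ cells (median 64.3% against 80.1%), Spi1 at 42.6% against 77.6%. Of 12 T cell genes, 8 were measured in both, and 5 were lower in CD4+ cells (median 54.1% against 73.9%); Cd4 itself was higher there, at 92.2% against 76.1%. Of 6 B cell genes, 4 were lower in CD11b+ and 2 in CD4+ cells, so the lists do not show the makeup of either sort.

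In CD11b+ cells the CpG-dense promoter regions moved both ways. Their median level was 20.2% in WT (quartiles 1.10% and 88.8%) and 25.3% in Dnmt3aR878H/+ cells, and the median difference within regions was a loss of 2.00 points (quartiles a gain of 4.77 and a loss of 8.70), with 60.8% of regions lower and 39.2% higher in the mutant. In CD4+ cells the median level was 61.4% in WT and 40.8% in Dnmt3aR878H/+, the median loss within regions was 4.64 points, and 79.9% of regions were lower. The CpG-sparse promoter regions lost more, 7.78 points in CD11b+ and 8.17 in CD4+ cells, with 91.9% and 94.7% of regions lower. CpG-dense regions away from promoters lost 4.58 and 4.56 points.

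The small median loss in CD11b+ cells depended on which regions counted. It was -0.854 points, a gain, when density was taken from the CpG dinucleotides of the sequence (at least 0.06 per base) and -8.24 points in regions with more than 20 CpGs, and it was 4.90 points where at least 70% of the cytosines were used. The gap to CpG-dense regions away from promoters, -2.58 points of loss in CD11b+ cells, was 0.150 points under that last condition. In CD4+ cells this gap was 0.0777 points and took either sign with the settings.

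**Figure D1:**
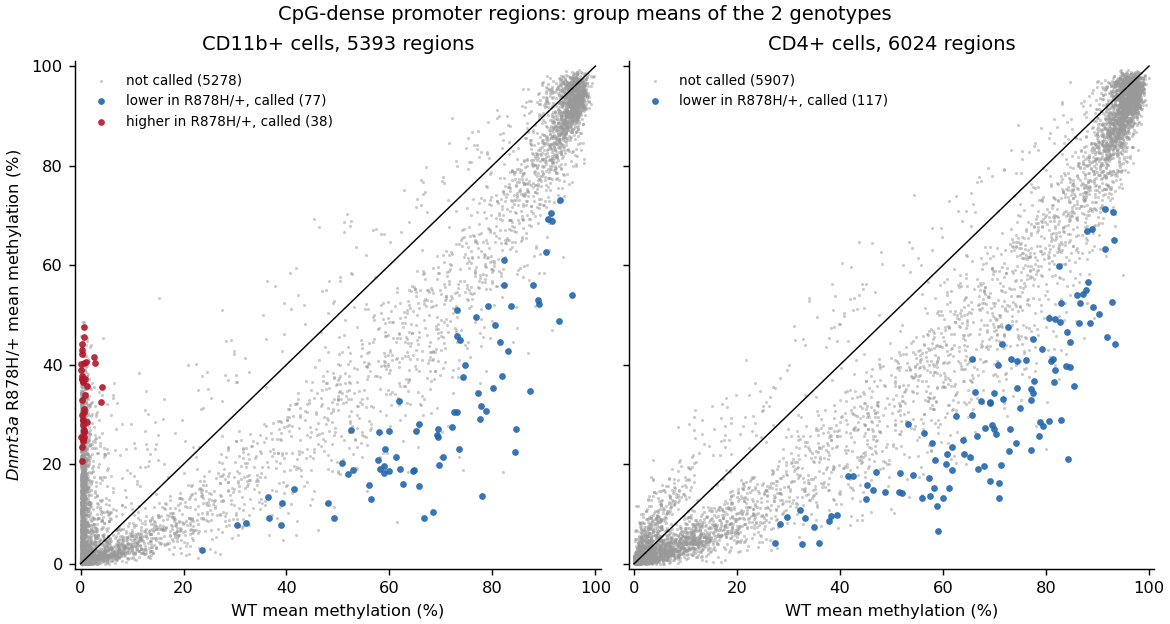
Each point is 1 CpG-dense promoter region, with its mean methylation in WT (x axis, percent) against Dnmt3aR878H/+ (y axis, percent); the line marks equal levels, blue points were called lower in the mutant and red points higher. In CD11b+ cells (left) a column of regions near 0% in WT rises to 47.5% in the mutant, in CD4+ cells (right) that column is absent, and in both panels regions of intermediate WT level lie below the line.

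A differentially methylated region was called by the study's limits: more than 10 CpGs, a difference above 20 points and a caller's q under 0.05. Of the CpG-dense promoter regions, 2170 in CD11b+ and 2261 in CD4+ cells had enough CpGs to be called. In CD11b+ cells 77 were called lower in Dnmt3aR878H/+, 3.55% of those that could be, against 1.38% of all listed regions, and 38 were called higher, 1.75% against 0.0299%. In CD4+ cells 5.17% of those that could be were called lower, against 1.49%, and 0 higher, against 0.00122%. Of the CpG-dense regions elsewhere that could be called, 3.42% in CD11b+ and 3.58% in CD4+ cells were called lower. The CD11b+ share of the dense promoter regions was thus close to that of dense regions elsewhere. At sparse promoters the shares called lower were 2.76% and 3.16%. By WT level the lower CD4+ calls were 7 regions at 10% to 35%, 34 at 35% to 65%, 68 at 65% to 90% and 8 at 90% or over. With no limit on q, 1 CD4+ region that could be called gained over 20 points. Of the 51 autosomal regions called higher in CD11b+ cells, 38 were CpG-dense promoter regions, 5 were CpG-sparse promoter regions and 8 were CpG-dense regions elsewhere.

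The 77 lower regions of CD11b+ cells had a median of 69.5% in WT (range 23.6% to 95.4%) and 26.7% in Dnmt3aR878H/+ (2.70% to 73.1%), a median loss of 37.7 points. The lower regions of CD4+ cells went from a median of 70.8% (27.4% to 93.4%) to 28.1% (3.90% to 71.3%), also a median loss of 37.7 points. Most started from an intermediate level: 67 of 77 CD11b+ regions had a WT mean between 35% and 90%, as did 102 of the lower CD4+ regions, or 87.2%.

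Hoxa5 had the largest loss in both cell types. In CD11b+ cells 1 region of 97 cytosines (chr6:52203675-52204998), which covers the start, the 5′ UTR and coding sequence, fell from 77.9% to 13.7%, and its neighbour upstream (chr6:52205049-52205169) fell from 95.4% to 53.9%. In CD4+ cells 4 regions were listed at the gene, which cover this DNA only in part. The one over the start (chr6:52204300-52204768) fell from 84.3% to 21.0%, and those upstream fell from 85.4% to 35.7% and from 91.5% to 71.3%; the farthest, beyond the CD11b+ regions, stood at 93.0% and 71.6% and was not called. In both cell types the largest loss was the one over the start.

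The HoxA cluster held several of these regions. In CD11b+ cells 5730596B20Rik fell from 84.3% to 22.4% and a region upstream of Hoxa2 (chr6:52165048-52165260) from 52.9% to 18.8%. In CD4+ cells the called region of 5730596B20Rik (chr6:52177549-52177783) overlapped only the end of the CD11b+ one (chr6:52177033-52177560) and fell from 89.0% to 67.3%. In the same cells the coding exon of Hoxa6 (chr6:52208240-52208498) fell from 68.2% to 27.2%. Of the 39 Hox genes, which encode the homeobox factors of body patterning, 16 had a dense promoter region in CD11b+ cells and 15 of these averaged lower, with 2 genes called (Hoxa5 and Hoxa2), and 19 had one in CD4+ cells, of which 18 averaged lower and 2 were called (Hoxa5 and Hoxa6). Of these Hox genes, 11 in CD11b+ and 7 in CD4+ cells could be called. Their median WT levels were 14.3% and 14.1%, and dense promoter regions from 10% to 35% in WT lost a median of 9.41 and 8.82 points. The median loss over the Hox genes was near these values, 8.83 points in CD11b+ and 8.15 in CD4+ cells. It was 2.25 and 4.88 over all genes with a dense promoter region. Of all those genes, 61.7% averaged lower in CD11b+ and 82.2% in CD4+ cells, 1.76% had a region called lower in CD11b+ and 2.46% in CD4+ cells, and 1.03% and 0% had one called higher.

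Runx1, a transcription factor of definitive hematopoiesis, combined a loss with values that went the other way. Its region at an internal start (chr16:92695709-92696075, 5′ UTR and coding exon) fell from 84.5% to 27.0% in CD11b+ cells, and the matching region in CD4+ cells (chr16:92695764-92696081) fell from 84.6% to 39.6%. Upstream of it, over another start of the gene, a CD11b+ region (chr16:92697213-92697364) stood at 1.2% in WT and 30.8% in Dnmt3aR878H/+; its difference was not called. The CD4+ region nearest to it (chr16:92696614-92696900) did not overlap it and stood at 1.10% and 0.750%. The CD11b+ regions that do overlap that one stood at 1.25% and 6.81% (chr16:92696823-92696899) and at 0.50% and 13.4% (chr16:92696900-92696991).

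Other large losses lay at genes of varied function. In CD11b+ cells Zmynd8, a chromatin reader, fell from 68.4% to 10.4% in an intron upstream of an internal start (chr2:165858190-165858576), and Arhgef18, a guanine nucleotide exchange factor, fell from 66.7% to 9.25% in its 5′ UTR (chr8:3392677-3393476). In CD4+ cells Pwwp2b, a chromatin protein with a PWWP domain, fell from 70.8% to 13.2% in DNA upstream of its start (chr7:139247241-139247760). Flt1, a receptor for vascular endothelial growth factor, fell in the same cells from 70.9% to 16.3% in an intron near its start (chr5:147646389-147646535).

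Part of the called losses was shared by both cell types. The same overlap over all called lower regions is not given here, so whether this sharing is particular to dense promoter regions is not known. Genes with a called lower region numbered 75 in CD11b+ cells, and 27 of them also had one in CD4+ cells, 36.0% of the CD11b+ genes and 23.9% of the CD4+ genes. Of the 77 CD11b+ regions, 73 overlapped a listed CD4+ region and 46 a called lower one, and of the CD4+ regions called lower 96.6% overlapped a listed CD11b+ region and 59, or 50.4%, a called lower one. The smaller of both losses was largest at Hoxa5, Kctd1 (87.3% to 34.7% in CD11b+, 77.1% to 22.9% in CD4+), Fam214a (77.5% to 29.2% and 72.8% to 22.7%), 6030445D17Rik (64.8% to 18.8% and 82.9% to 28.9%) and Runx1. Among the other shared genes were Bcl3, a regulator of NF-κB, which fell from 77.8% to 31.6% in CD11b+ and from 75% to 31.3% in CD4+ cells, and Tradd, an adaptor of the TNF receptor, which fell from 72.4% to 30.6% and from 86.4% to 48.4%. Bcl3 and Tradd were picked from this list after their values were seen.

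**Figure D2:**
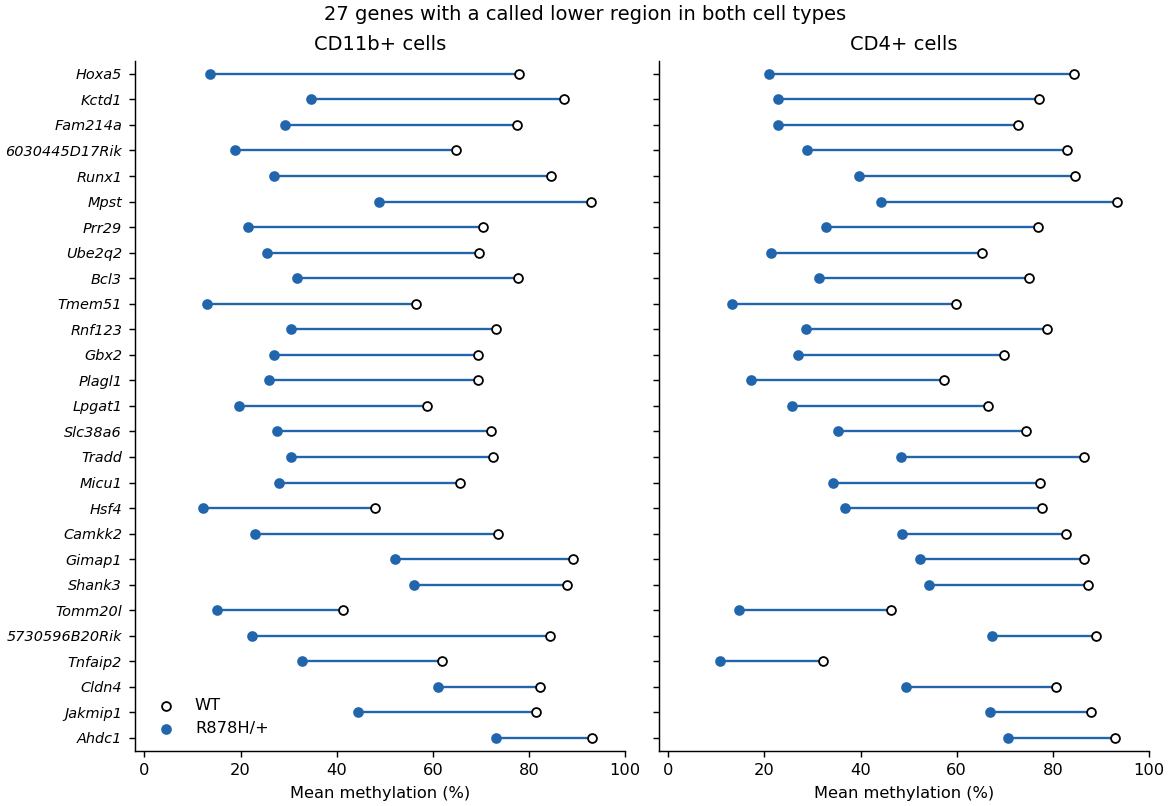
Mean methylation (x axis, percent) of the most changed called region of each of the 27 genes called lower in both cell types (y axis), in CD11b+ (left) and CD4+ cells (right); open points are WT, filled points Dnmt3aR878H/+, and the line joins both. Every filled point lies to the left of its open point, and Hoxa5 at the top goes from 77.9% to 13.7% in CD11b+ and from 84.3% to 21.0% in CD4+ cells. The regions of a gene can cover different DNA in both cell types: those of Tnfaip2 do not overlap, and those of 5730596B20Rik and Kctd1 overlap only in part.

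The gains of CD11b+ cells started from unmethylated DNA. All 38 regions called higher had a WT mean under 5.00%, 32 of them under 1.00%, with a median of 0.496% (range 0.0366% to 4.26%), and reached a median of 34.7% in Dnmt3aR878H/+ (20.6% to 47.5%). Their gains ran from 20.4 to 46.9 points with a median of 32.8, and 19 of the 38 ended above 35%. They were spread over 16 chromosomes and lay within reach of 44 genes. The middle of 27 of them lay downstream of the nearest start.

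The 5 largest gains lay at Cebpb, Pcbp1, Junb, Srsf2 and Gsk3b. The Cebpb region (chr2:167689687-167689918, coding exon and 3′ UTR) rose from 0.648% to 47.5%, and the Junb region, in the coding exon of an AP-1 subunit (chr8:84977703-84978198), rose from 0.228% to 44.1%. The coding region of Pcbp1 (chr6:86525160-86525812) rose from 0.582% to 45.6%, and that of the splicing factor Srsf2 with its 5′ UTR (chr11:116852616-116852947), shared with the start of Mfsd11, rose from 0.230% to 42.9%. The 5′ UTR of Gsk3b, a kinase of the Wnt and insulin pathways (chr16:38089706-38090035), rose from 0.309% to 42.1%. The start of Rpl8, a protein of the large ribosomal subunit (chr15:76904309-76904445), rose from 0.598% to 40.3%, and its uncalled neighbours stood at 1.45% and 41.1% and at 3.05% and 30.2%. Vim, which encodes vimentin and was picked after its values were seen, rose from 0.976% to 40.5%.

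**Figure D3:**
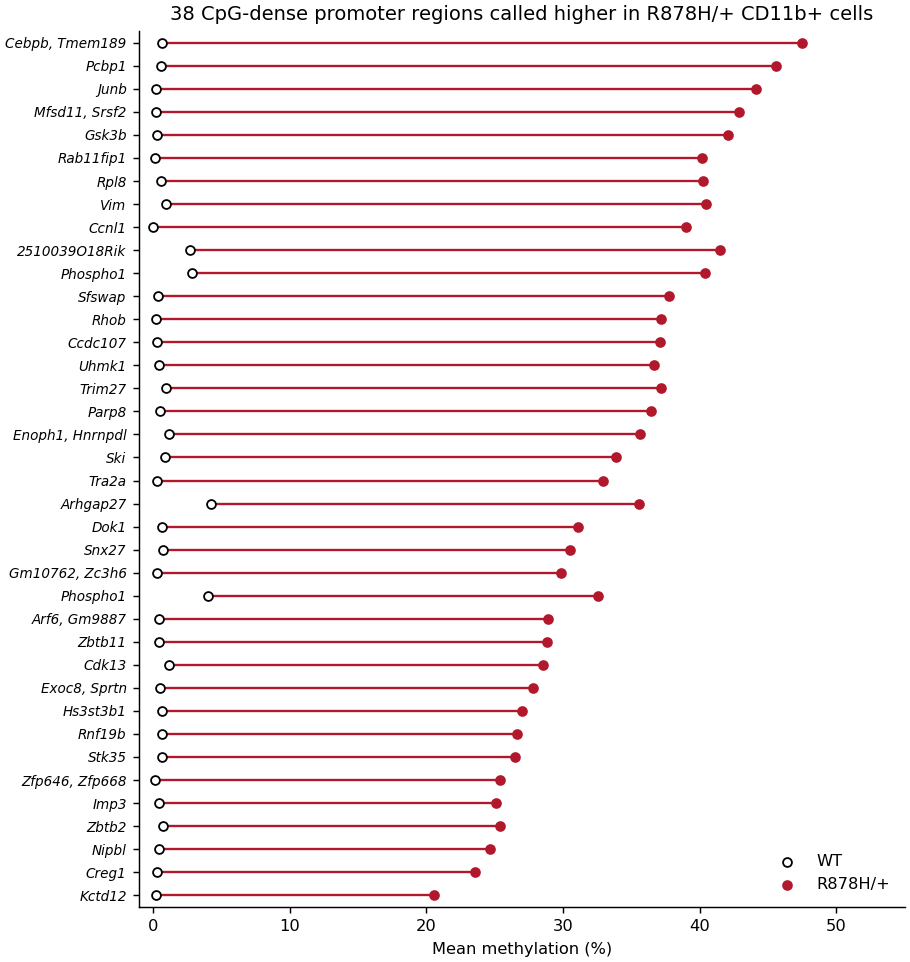
Mean methylation (x axis, percent) of the 38 CpG-dense promoter regions called higher in Dnmt3aR878H/+ CD11b+ cells, labelled by all genes with a start in reach (y axis); open points are WT, filled points Dnmt3aR878H/+, and the line joins both. All open points lie at or under 4.26%, and the filled points run from 20.6% at Kctd12 to 47.5% at Cebpb.

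The same DNA gave no such gain in CD4+ cells where it could be read. Of the 38 regions, 3 overlapped a region of the CD4+ table, at Phospho1, Ccdc107 and Tra2a, and none of the overlapping CD4+ regions was called. At Phospho1, a phosphatase of bone mineralization, the CD11b+ region went from 4.00% to 32.6%, while the 3 overlapping CD4+ regions stood at 8.63% and 2.51%, at 3.65% and 3.35%, and at 8.43% and 1.28%. At Tra2a, a splicing regulator, CD11b+ cells went from 0.328% to 33.0%, and the CD4+ regions stood at 2.85% and 0.175% and at 0% and 0.975%. At Ccdc107 the CD11b+ values were 0.319% and 37.1% and the CD4+ values 1.03% and 0.250%. For the other 35 regions no CD4+ value is listed.

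WT level ordered the differences in both cell types. Regions between 35% and 65% in WT lost most, a median of 17.6 points in CD11b+ (477 regions, 27 called lower) and 17.5 in CD4+ cells (683 regions, 34 called lower). Those between 65% and 90% lost 13.7 points (686 regions, 40 called) and 15.2 points (871 regions, 68 called), those between 10% and 35% lost 9.41 and 8.82 points, and those of 90% and over lost 3.55 points (1281 regions) and 3.48 points (2043 regions). The dense promoter regions lost somewhat more than sparse promoters in the class from 65% to 90%, where the latter lost 11.0 and 11.9 points. At 90% and over they lost less, against 4.92 and 5.13 points at sparse promoters. Dense regions away from promoters lost 3.40 and 3.45 points at 90% and over, close to the dense promoter regions. From 65% to 90% those away from promoters lost 9.80 and 10.6 points.

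The cell types stood apart in the regions under 10% in WT. In CD11b+ cells 2407 regions (44.6% of the set) were of this kind, with a median of 0.903% in WT and 6.58% in Dnmt3aR878H/+, a median gain of 4.90 points, and 516 of them (21.4%) gained over 20 points. In CD4+ cells 1599 regions (26.5%) had medians of 3.06% and 2.17%, a median loss of 0.450 points, and 0 gained over 20 points. Under the same WT limit in CD11b+ cells, sparse promoter regions lost a median of 0.300 points and 7.59% gained over 20 points, and dense regions away from promoters lost 0.673 points and 4.26% gained over 20 points.

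The classes were cut on the WT mean, which is also part of the difference, and so chance variation alone lifts the lowest class and lowers the highest. With classes cut on the average of both genotypes, CD11b+ regions from 10% to 35% gained a median of 18.7 points (1132 regions, 41.6% lower) and those under 10% gained 0.775 points. In CD4+ cells the corresponding values were losses of 11.2 points (810 regions, 84.6% lower) and 1.00 point. Dense regions away from promoters in CD11b+ cells lost 12.9 and 1.93 points in these classes.

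**Figure D4:**
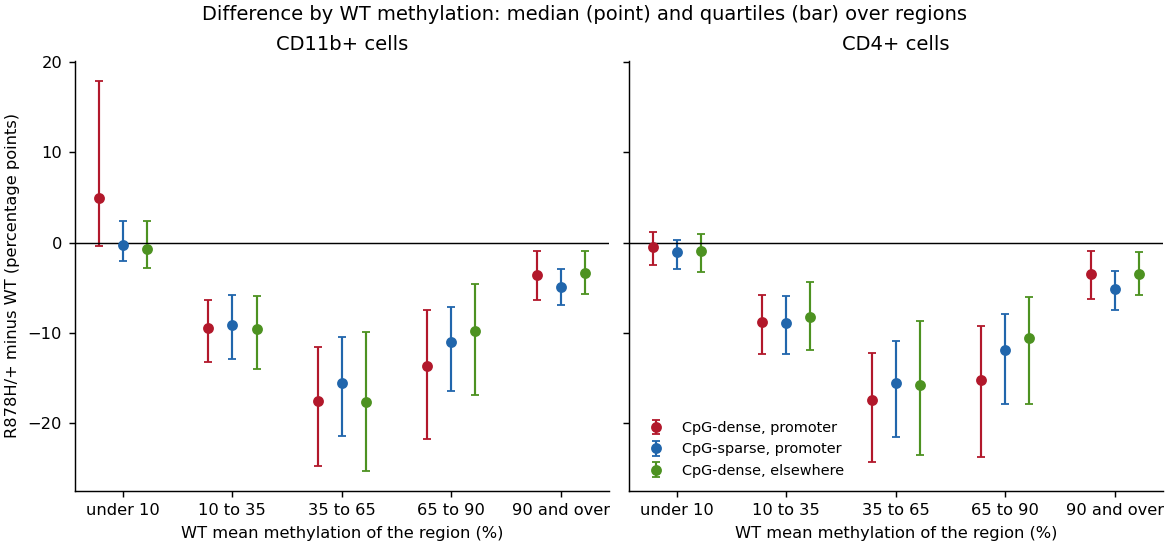
Difference in mean methylation, Dnmt3aR878H/+ minus WT (y axis, percentage points), by WT level of the region (x axis, percent), in CD11b+ (left) and CD4+ cells (right); points are medians over regions and bars run from the lower to the upper quartile. The CpG-dense promoter regions (red) under 10% in WT stand above 0 in CD11b+ cells, with a median of 4.90 points, and all other medians in both panels are under 0.

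The gain of CD11b+ regions under 10% in WT followed position. With the middle of the region up to 200 bases downstream of the start, the median gain was 10.6 points (719 regions, 188 of them over 20 points). It was 6.66 points from 200 to 500 bases downstream (612 regions) and 3.50 points beyond that (408 regions). Upstream it was 1.90 points within 200 bases (373 regions) and 0.350 points from 200 to 500 bases (193 regions), and beyond 500 bases the median was a loss of 0.762 points (102 regions). The 38 called regions did not follow this order. Between 200 and 500 bases upstream 8 of 71 that could be were called (11.3%), and within 200 bases upstream 3 of 168 (1.79%). The 3 downstream bins held 9 calls each, from near to far 2.87%, 3.52% and 4.69% of those that could be. The CD4+ medians of all 6 bins lay between a loss of 1.31 and a loss of 0.177 points.

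It also followed CpG density. CD11b+ regions under 10% in WT with fewer than 4 CpG dinucleotides per 100 bases lost a median of 1.26 points (52 regions), those with 8 to 10 gained 5.11 (386 regions), those with 10 to 12 gained 10.7 (389 regions) and those with at least 12 gained 10.9 (832 regions, 241 of them over 20 points). The corresponding CD4+ medians were losses of 0.662, 0.231 and 0.50 points and a gain of 0.50 points. Regions of intermediate WT level, 35% to 90%, had a median loss at every density, but a smaller one at the highest. In CD11b+ cells they lost 16.0 points under 4 CpGs per 100 bases and 10.6 points at 12 or more. The share of them higher in the mutant was 2.55% and 29.85%. In CD4+ cells the losses were 16.1 and 12.2 points.

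**Figure D5:**
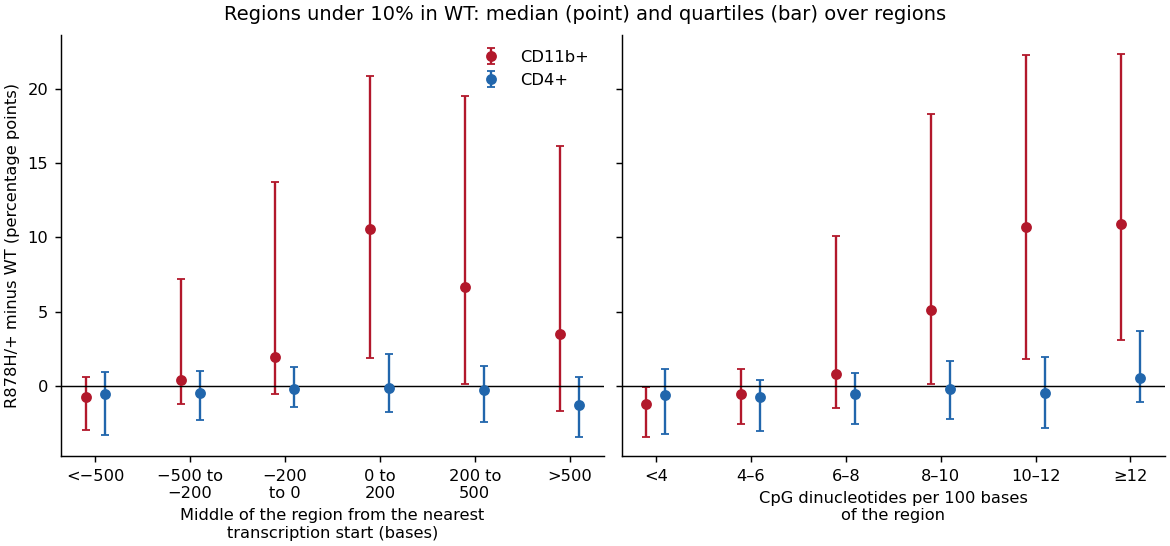
CpG-dense promoter regions under 10% in WT: difference in mean methylation, Dnmt3aR878H/+ minus WT (y axis, percentage points), by the position of the region's middle relative to the nearest transcription start (left, bases, negative is upstream) and by CpG dinucleotides per 100 bases (right). Points are medians and bars quartiles over regions; CD11b+ medians (red) peak at 10.6 points just downstream of the start and reach 10.9 points at the highest density, while CD4+ medians (blue) stay within 1.31 points of 0.

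The share of cytosines used moved with these gains. CD11b+ regions under 10% in WT in which under 30% of the cytosines were used gained a median of 12.2 points (85 regions, 2 called), those with 30% to 50% gained 10.5 (724 regions, 16 called), those with 50% to 70% gained 4.98 (865 regions, 16 called), those with 70% to 90% gained 0.713 (636 regions, 4 called) and those with 90% or more lost 0.300 (97 regions, 0 called). The CD4+ medians over the same bins were a gain of 0.812 points (32 regions) and losses of 0.250, 0.321, 0.600 and 0.700 points. Density and use were also crossed: downstream of the start, CD11b+ regions of at least 8 CpGs per 100 bases gained 11.9 points with under 70% used (987 regions) and 7.79 points with at least 70% used (230 regions), whereas those under 8 CpGs per 100 bases gained 2.01 points (258 regions) and lost 0.587 points (264 regions). With at least 70% used, 4 of the 38 calls were left, and 79.6% of the 230 dense downstream regions were still higher in the mutant. By G+C content, CD11b+ regions under 10% in WT lost a median of 0.8875 points below 50% (166 regions). They gained 11.85 points from 70% to 75% (387 regions) and 8.505 points at 75% or more (324 regions). The CD4+ medians in these 3 bins were a loss of 1.002 points and gains of 0.300 and 0.675 points.

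The libraries of the cell types also differ in their labels. The sample numbers in the titles begin with 1 for all CD11b+ mice and with 2 for the 2 repeat entries of mutant CD11b+ cells, whereas in CD4+ cells they begin with 1 for 3 of 4 WT mice and with 2 for the other WT mouse and all 4 mutant mice. The titles do not say what the numbers stand for. Their part, and that of cytosine use and G+C content, in the gains was not tested.

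CD11b+ and CD4+ cells were compared on the same DNA in 1361 overlapping pairs of dense promoter regions, which held 23.4% of the CD11b+ and 21.2% of the CD4+ set. In the 422 pairs at 35% to 90% in WT in both, the median loss was 18.2 points in CD11b+ and 17.0 in CD4+ cells, and 386 pairs were lower in both. In the 303 pairs of 90% and over, it was 4.2 and 3.88 points, with 224 lower in both. In the 250 pairs under 10% in both, CD11b+ cells had a median loss of 0.127 points with 54 gains over 5 points and 15 over 20, and CD4+ cells a median loss of 0.662 points with 17 gains over 5 and 0 over 20. The regions with the largest CD11b+ gains mostly had no CD4+ counterpart and are outside these pairs.

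Blood transcription factors had called regions in both directions. Of 55 such genes, 29 had a dense promoter region in CD11b+ cells, of which 10 averaged lower and 19 higher, with a median gain of 5.52 points. Of 16 that could be called, 2 were called lower (Runx1 and Ikzf1) and 1 higher (Cebpb). Over all genes with a region, 61.7% averaged lower, and of 1948 that could be called 75 were called lower and 44 higher. The list was low in WT, with a median of 1.47% and 20 of the 29 genes under 10%. Of all dense promoter regions under 10% in WT in these cells, 71.7% were higher, with a median gain of 4.90 points. Ikzf1, the lymphoid regulator Ikaros, fell from 49.3% to 9.28% and is named because the count is small. Myc, which drives cell growth, stood at 0.875% and 38.8% in 1 region and at 0.521% and 34.0% in another, and Cebpa, the factor of granulocyte commitment, at 2.02% and 32.3%; none of these 3 was called, and they were picked after their values were seen. In CD4+ cells 14 of the genes had a region, 12 averaged lower, and Runx1 and Gata2 were called. Gata2, a factor of stem and mast cells, fell from 71.2% to 19.9% in a coding exon (chr6:88200314-88200487); its CD11b+ region lay elsewhere in the gene (chr6:88194427-88194581) and stood at 21.3% and 6.80%.

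Imprinted genes, which carry methylation on 1 parental allele, lay near 50%. Of 31 genes, 22 had a dense region in CD11b+ and 23 in CD4+ cells, with median WT levels of 54.3% and 57.6%, and Plagl1 was the gene called in each cell type. Plagl1, a zinc finger factor of growth control, fell from 69.3% to 25.9% in CD11b+ (chr10:13061038-13061124, intron) and from 57.4% to 17.2% in CD4+ cells (chr10:13060987-13061093). Another CD11b+ region farther along the gene (chr10:13089954-13090215) fell from 82.2% to 56.1%. The CpG-dense start just downstream of it (chr10:13090980-13091361) stood at 57.2% and 57.7% in CD11b+ cells. The overlapping CD4+ regions there stood at 52.9% and 40.3%, at 64.5% and 57.5% and at 58.2% and 43.3%.

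Germline genes, whose promoters are methylated in somatic tissue, lost methylation from a high level. Their median loss was 7.00 points in CD11b+ and 4.38 in CD4+ cells, against 2.25 and 4.88 over all genes with a dense promoter region. The latter include 1802 of 4273 genes under 10% in WT in CD11b+ and 1131 of 4592 in CD4+ cells. Dense promoter regions from 65% to 90% in WT lost 13.7 and 15.2 points, and those of 90% and over lost 3.55 and 3.48. In CD11b+ cells 17 of 46 had a dense region, all 17 averaged lower, the median went from 92.9% to 82.7%, and 0 of 8 that could be were called. In CD4+ cells 19 had a region, 15 averaged lower (78.9%, against 82.2% of all genes), the median went from 93.5% to 84.8% and 0 of 6 were called.

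For the remaining lists, counts of 0 or 1 call are too few to compare with the shares of all genes. Only genes with a region of more than 10 CpGs could be called. In CD11b+ cells 1 gene made up 4.76% of the ribosomal and 5.88% of the osteoclast and inflammatory genes called higher, against 1.03% of all genes with a region. Other developmental transcription factors were lightly methylated in WT, with medians of 8.77% in CD11b+ (27 genes, 23 lower) and 12.1% in CD4+ cells (37 genes, 36 lower), median losses of 5.20 and 6.83 points, and 0 calls among 13 and 15 genes that could be called. Ribosomal protein genes had a region at 21 of 52 genes in CD11b+ cells, 14 averaging lower and 1 called higher (Rpl8) among 9 that could be, and at 8 genes in CD4+ cells with 0 calls of 4. Of the 59 osteoclast and inflammatory genes, which the disease context of the study brings in, 17 had a region in CD11b+ cells (9 lower, 1 of 11 called higher, Junb) and 12 in CD4+ cells (11 lower, 0 of 6 called). Of 51 genes of mTOR signaling, 15 had a region in CD11b+ (6 lower, median gain of 0.95 points) and 7 in CD4+ cells (6 lower), with 0 calls among 5 and 4 genes.

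The last 3 lists also had 0 calls, with few genes that could be called. DNA methylation and demethylation enzymes and readers had a region at 9 of 23 genes in CD11b+ cells (7 lower, 4 that could be called) and at 12 in CD4+ cells (10 lower, 5 that could be called). Tet1, which oxidizes methylcytosine, had the largest difference of this list and stood at 70.4% and 39.4% in CD11b+ and at 74.3% and 43.9% in CD4+ cells, in regions of 10 cytosines that could not be called. Tet1 was chosen with its values known. Polycomb subunits had a region at 7 of 27 genes in CD11b+ (4 lower, 4 that could be called) and at 5 in CD4+ cells (4 lower), of which 0 could be called. Clustered protocadherins, adhesion proteins with stochastic promoter choice in neurons, had one at 20 of 58 genes in CD11b+ (13 lower) and at 22 in CD4+ cells (17 lower), with 11 that could be called in each.

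Some methylated regions moved little, which their rule required. Among those at 80% or more in WT with a difference under 5 points, the regions with the most CpGs were at Dlgap2, Tacc2 and Dip2a in CD11b+ cells, at 94.1% and 93.8%, 97.0% and 97.2%, and 95.0% and 94.9%. In CD4+ cells they included BC034090 (95.2% and 94.8%) and the amino acid transporter gene Slc38a3 (93.8% and 90.8%). All 5 of these regions overlapped coding exons.

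Some unmethylated regions stayed under 5% in both genotypes. Cbs, an enzyme of homocysteine metabolism, stood at 0.987% and 1.12% in CD11b+ cells over its start (chr17:31636722-31637290). Slc16a7, a monocarboxylate transporter, stood at 0.240% and 1.26%. In CD4+ cells the serine protease gene Prss23 stood at 3.74% and 3.57% and the centromere gene Cenps at 0.962% and 1.40%.

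Vav1, whose promoter drives the iCre transgene, had a region called higher in both cell types and fell outside the dense set. Its region stood at 1.96% and 55.2% in CD11b+ (chr17:57279430-57279938, 0.0236 cytosines per base) and at 4.30% and 42.3% in CD4+ cells (chr17:57279385-57279973, 0.0340 cytosines per base).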

How the data were processed

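DNA of splenic CD11b+ and CD4+ cells from 4 mice per genotype was bisulfite sequenced; the authors mapped reads to mm10 with BISCUIT and segmented CpG methylation with metilene (versions are not given in the sources used here). The 2 deposited tables list regions with a count of CpG cytosines and each genotype's mean as a percent, and 0 columns of single samples. The authors' comparison columns hold a difference and p-values: the difference was recomputed from the means, the region-level tests were not used, and the q-value served only as a threshold. Regions sequenced more deeply cannot be weighted, since depth is not given.

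Starts came from GENCODE M21, and sequence and CpG counts from the RefSeq copy of GRCm38 (mm10), with Python 3.11.15, pandas 2.3.3, NumPy 2.4.6 and pysam 0.24.0; the steps were tested on simulated data. Members and 11 gene lists were chosen with earlier results of these data known. Named genes are, per cell type, the 5 largest called losses and gains, the 3 most CpG-rich kept regions (WT at least 80%, difference under 5 points) and unmethylated regions (both under 5%), the 5 largest losses shared by both cell types, and called list genes, at most 3 per list; exceptions are marked, and 1 kept region is not reported here. Sequences are of at most 2 genes of each kind, up to 300 bases, upstream and outside exons, or, where a kind had none, outside UTRs. No fit or test between genotypes was run, since group means allow none. Alternatives in density, distance, start annotation, CpG number, weighting and call limits were recomputed.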

Additional observations from a re-analysis of the deposited data

How the results depend on the processing

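No paired analysis was possible because the tables hold group means only; for the same reason no mouse could be left out. Of 130 recomputed values, 43 stayed within the limits set for no change, 81 moved and 6 took the opposite sign. The alternative of at least 70% of cytosines used was chosen after seeing the data. The cause of these shifts was not tested, except that tighter limits leave fewer regions.

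The median loss of CpG-dense promoter regions, 2.00 points in CD11b+ cells, was 4.25 at a density of at least 0.04, 0.347 at 0.08, -0.854 with CpG dinucleotides of the sequence, 0.771 within 500 bases and 2.95 within 2 kb of a start, 0.175 with starts of gene records, -8.24 with more than 20 CpGs and 4.90 with at least 70% of cytosines used. In CD4+ cells (4.64 points) it was 5.98, 3.82 and 2.18 for the 3 density rules, 3.98 within 500 bases, 16.7 with more than 20 CpGs, 5.22 with at least 70% used and 5.04 weighted by CpGs. The share of regions lower in the mutant, in the order density 0.04, 0.08, dinucleotides, 500 bases, 2 kb, gene records, more than 20 CpGs and 70% used, was 71.6%, 51.9%, 44.1%, 55%, 65.4%, 50.6%, 42.2% and 77.5% in CD11b+ cells. The CD4+ shares were 84.9%, 75.8%, 69.9%, 77.2%, 81.4%, 76.7%, 91.8% and 83.7%.

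The median loss minus that of sparse promoters, -5.78 points in CD11b+ cells, was in the same order -3.75, -7.27, -8.73, -6.67, -4.67, -8.80, -21.2 and -2.79, and -6.31 weighted. In CD4+ cells (-3.53) it was -2.34, -4.23, -5.96, -3.91, -3.08, -5.05, 4.03 and -2.79. The median loss minus that of dense regions elsewhere, -2.58 points in CD11b+ cells, was -1.15, -3.48, -3.83, -3.80, -1.61, -4.38, -23.6 and 0.150. In CD4+ cells (0.0777) it was 0.50 at a density of 0.04, -0.568 with dinucleotides, -0.624 within 500 bases, 3.27 with more than 20 CpGs and 0.538 with 70% used.

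Calls lower in CD11b+ cells (77) numbered 197 and 33 at densities of 0.04 and 0.08, 44 with dinucleotides, 51 within 500 bases, 35 with gene records, 36 with more than 20 CpGs, 47 with 70% used and 237 without a q limit. In CD4+ cells they numbered 302, 55, 70, 61 with gene records, 63 with more than 20 CpGs, 63 with 70% used and 309 without a q limit. Calls higher in CD11b+ cells (38) numbered 4 with 70% used, 22 above 30 points and 337 without a q limit, and were between 29 and 43 under the other 9 alternatives. In CD4+ cells (0) there was 1 above 10 points and 1 without a q limit. Genes called lower in both (27) numbered 92 and 11 at densities of 0.04 and 0.08, 11 with gene records, 15 with more than 20 CpGs, 12 with 70% used and 73 without a q limit. Read depth limits what can be said of any single region and is unknown.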
